A study of Homo sapiens with 36 samples.

Results

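This account follows 10 transcripts that report on or restrain signalling through the kinase ERK. They are the phosphatase genes DUSP4, DUSP5 and DUSP6, the Sprouty genes SPRY1, SPRY2 and SPRY4, their relatives SPRED1 and SPRED2, and the transcription factor genes ETV4 and ETV5. They were chosen by name, with earlier results of these data known. All 10 were found among the 36601 genes of the bulk RNA-seq count table. Of the series' 36 samples only the 12 bulk libraries were used, and 24 were not analysed here. The cells were HEK293, an established human line from embryonic kidney, in which an endogenous protein was fused to HaloTag, a modified bacterial enzyme that binds its ligands covalently. HyT36 is a hydrophobic HaloTag ligand meant to unfold the tagged protein, given at 25 µM, and DMSO is its solvent.

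The 12 libraries formed 4 groups of 3, from 2 clones (numbered 4 and 5) that each received either HyT36 or DMSO. All 12 are labelled as tagged cells, each line is a single clone, and no untagged library with HyT36 was among them, so an action of the ligand without the tag cannot be told apart from one that needs it. The labels do not name the protein that either clone has tagged. They mention ligand exposures of 2 and 12 h without tying the bulk samples to one of them. The labels do not say that the 3 libraries of a group came from separate cultures, so the tests measure the spread between these libraries, which may be technical.

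Growth factor receptors activate Ras, which drives the kinases Raf, MEK and ERK in turn. Active ERK raises the transcription of its own brakes. The DUSP proteins of this group remove the activating phosphates from ERK, with DUSP5 and DUSP4 in the nucleus and DUSP6 in the cytoplasm. Sprouty and Spred proteins act further up, between the receptors and Raf. ETV4 and ETV5 are ETS family activators whose transcripts are released when ERK inactivates the repressor CIC. Levels of these transcripts are therefore widely read as a record of recent ERK output.

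The proximal promoter sequences of the members were looked up in RefSeq (GRCh38.p14), which paired 6 of the 10 members with 10 start sites. Each window ran from 250 bases before to 50 bases after a start. The windows are shown because members that respond to one pathway are often compared for shared factor sites, and capitals mark matches to the searched motifs. The stretch before the first start of SPRY1 (chr4:123396545-123396794, plus strand), the stretch before the first start of SPRY2 (chr13:80341127-80341376, minus strand) and the stretch before the start of SPRED1 (chr15:38252586-38252835, plus strand) are given 5′ to 3′.
SPRY1, first start: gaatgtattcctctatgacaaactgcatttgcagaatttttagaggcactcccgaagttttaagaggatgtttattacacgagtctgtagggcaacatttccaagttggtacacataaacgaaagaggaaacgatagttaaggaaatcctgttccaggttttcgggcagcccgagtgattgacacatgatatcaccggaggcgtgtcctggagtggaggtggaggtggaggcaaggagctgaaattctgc
SPRY2, first start: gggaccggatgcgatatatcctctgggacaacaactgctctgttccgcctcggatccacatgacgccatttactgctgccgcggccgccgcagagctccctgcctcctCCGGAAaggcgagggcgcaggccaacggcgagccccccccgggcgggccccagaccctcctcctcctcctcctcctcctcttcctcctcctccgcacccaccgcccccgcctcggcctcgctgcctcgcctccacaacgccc
SPRED1: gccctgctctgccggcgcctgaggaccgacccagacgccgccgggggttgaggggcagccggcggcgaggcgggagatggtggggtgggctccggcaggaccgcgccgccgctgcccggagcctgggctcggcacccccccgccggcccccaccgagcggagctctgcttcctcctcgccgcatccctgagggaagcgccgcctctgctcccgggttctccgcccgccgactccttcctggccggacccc

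Motifs were searched on both strands, and no match of one overlapped a match of another. The ETS core CCGGAA, the sequence class bound by ETV4, ETV5 and other ETS factors, occurred in 2 of the 10 windows, 1 each of SPRY1 and SPRY2, and in 17.2% of all 35116 promoter windows. In SPRY1 it lay 67 bases before the second listed start, within chr4:123398304-123398333 on the plus strand.
SPRY1, second start: aactgccctccgcagCCGGAAgggggccgc
In SPRY2 it lay 142 bases before the first start. The AP-1 site TGACTCA occurred in 1 of the 10 windows, of SPRED2, beginning 6 bases before its second listed start within chr2:65366777-65366806 on the minus strand, and in 4.95% of all windows.
SPRED2, second start: aaaatgcggactaaccctcggaTGACTCAt
The CRE site TGACGTCA and the E-box CACGTG occurred in 0 of the 10 windows, against 1.85% and 7.26% of all windows. A match is a description of the letters in these windows.

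Gene counts ranged from 22853946 to 28635511 per library, so that 1 CPM (reads scaled to library size, with TMM factors) stood for 23.0 to 27.7 reads. Of all genes, 14892 passed a filter on low counts and were tested. Of the members, 9 passed, and SPRY4 did not. ETV5 was near that limit, with 1 to 13 reads per library. Calls are at an adjusted p under 0.05 by edgeR's quasi-likelihood test with Benjamini-Hochberg adjustment over all genes tested. HEK293-associated markers summed to 197 to 286 CPM, most of it from VIM, at 151 to 233 CPM. At least 6 of the 8 were detected in every library, and the neurofilament genes NEFL and NEFM were both at 0 in 7 libraries. Of the 5 blood markers, CD3E and HBB were at 0 in all 12 libraries, and PTPRC and LYZ had at most 3 and 2 reads. CD74 had reads in every library, at 0.217 to 2.24 CPM. Fibroblast markers summed to 4.94 to 8.37 CPM.

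The 12 libraries fell apart on epithelial genes in a way that crosses the labels. KRT19, a keratin of simple epithelia, stood at 32.2 to 69.9 CPM in 6 libraries and at 0.0419 to 0.235 CPM in the other 6. The high libraries were replicate 1 of clone 4 with DMSO, replicates 2 and 3 of clone 4 with HyT36, and all 3 of clone 5 with DMSO. A list of 12 epithelial markers summed to 129 to 267 CPM in those 6 libraries and to 47.7 to 78.9 CPM in the others. At least 11 of the 12 markers had reads in every library, and EPCAM, an epithelial adhesion gene, was at 0 in replicate 3 of clone 5 with HyT36. In clone 5 this split coincides with DMSO against HyT36, so that the ligand and the split cannot be told apart there. Whether the high libraries hold cells of another line, or carry the labels of other libraries, was not tested. Because bulk RNA was measured, fewer cells of a type and less RNA per cell cannot be told apart either.

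**Figure D1:**
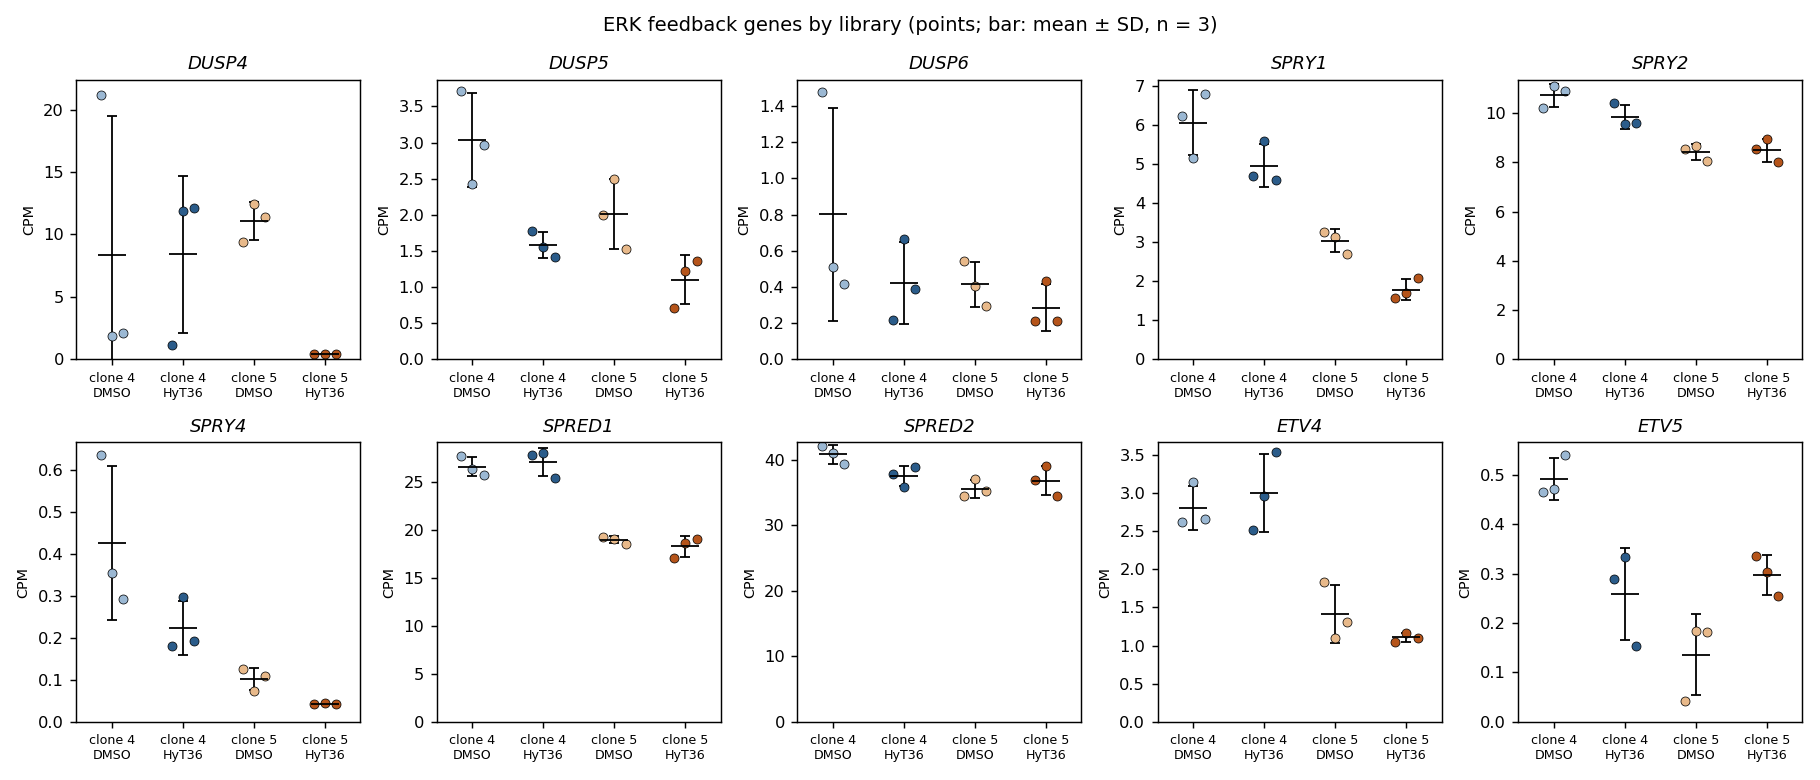
Level of each of the 10 genes in CPM (vertical axes, from 0, scaled per gene) in the 12 libraries, grouped by clone and treatment on the horizontal axis. Points are libraries and bars are the mean ± SD of 3 (lower arms that pass 0 are cut at the axis); DUSP5 is lower with HyT36 in both clones, SPRED1 and ETV4 are lower in clone 5, and DUSP4 is split within clone 4.

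In response to HyT36, few of these feedback transcripts moved, and those that did fell. DUSP5 fell in both clones, and SPRY1 fell in clone 5. In clone 4, 1 of the 9 tested members fell and 0 rose, against a background of 3.36% of all genes lower and 2.21% higher. In clone 5, 2 of 9 fell and 0 rose, against 4.83% lower and 3.35% higher. The median log2 fold change of the tested members was -0.13 in clone 4 and -0.35 in clone 5, beside 0.0027 and -0.0045 over all genes.

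DUSP5, the nuclear phosphatase that both inactivates and anchors ERK, lies on chromosome 10 (110497907 to 110511533, GRCh38.p14). In clone 4 it stood at 3.72, 2.43 and 2.96 CPM with DMSO and at 1.77, 1.55 and 1.42 CPM with HyT36. Each ligand library was below each DMSO library. The log2 fold change was -0.94 ± 0.24 (SE; edgeR adjusted p = 0.010), a 1.91-fold lower level. The call was lost without replicate 1 of clone 4 with DMSO (adjusted p = 0.056) and without replicate 3 of clone 4 with HyT36 (0.074).

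In clone 5, DUSP5 stood at 2.00, 2.50 and 1.53 CPM with DMSO and at 0.712, 1.22 and 1.36 CPM with HyT36. These groups did not overlap either, though the gap was narrow. The log2 fold change was -0.88 ± 0.26 (SE; edgeR adjusted p = 0.024). It no longer passed without replicate 1 (adjusted p = 0.064) or replicate 2 (0.18) of clone 5 with DMSO, or without replicate 1 of clone 5 with HyT36 (0.18). The fall was of like size in the clones: the difference of the responses was 0.06 on the log2 scale, with a 95% interval from -0.63 to 0.76. Averaged over both clones, DUSP5 had a log2 fold change of -0.91 ± 0.17 (SE; edgeR adjusted p = 0.00021).

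SPRY1, a membrane-associated inhibitor of receptor signalling to Ras, lies on chromosome 4 (123396795 to 123403760, GRCh38.p14). In clone 5 it stood at 3.25, 3.13 and 2.70 CPM with DMSO and at 1.55, 1.69 and 2.08 CPM with HyT36. The groups did not overlap. The log2 fold change was -0.77 ± 0.18 (SE; edgeR adjusted p = 0.0042), a 1.70-fold lower level, and it passed in each of the 12 fits that left out a library. In clone 4 it stood at 6.22, 5.14 and 6.78 CPM with DMSO and at 4.69, 5.59 and 4.58 CPM with HyT36, which overlapped. That response was -0.29 ± 0.15 and did not pass (edgeR adjusted p = 0.31).

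The difference of the SPRY1 responses between the clones was -0.48 ± 0.24 on the log2 scale and did not pass (unadjusted p = 0.048 and adjusted p = 0.62 by edgeR's quasi-likelihood test). SPRY1 was thus not shown to respond differently in clone 5. Averaged over the clones it fell by 0.53 ± 0.12 (SE; edgeR adjusted p = 0.0013). In the averaged response 2 of 9 members fell, DUSP5 and SPRY1, and 0 rose, against 8.03% of all genes lower and 6.65% higher. The averaged median of the tested members was -0.13, beside -0.0027 over all genes. When an indicator for the KRT19 split was added to the model, an alternative chosen after seeing the data, the clone 4 response of DUSP5 was -0.98 (edgeR adjusted p = 0.0045). Fitted on each side of the split alone, it was -1.32 in the high KRT19 libraries (adjusted p = 0.0020) and -0.61 in the low ones, where it did not pass (adjusted p = 0.47), with 1 library in an arm on each side. With the indicator the clone 5 responses no longer passed, with -0.71 for DUSP5 (adjusted p = 0.27) and -0.68 for SPRY1 (adjusted p = 0.090), in the clone where the split and the ligand coincide. Both averaged responses still passed, at -0.85 for DUSP5 (adjusted p = 0.0011) and -0.50 for SPRY1 (adjusted p = 0.0047). Each average includes the clone 5 response, for which the indicator's effect came from clone 4 alone. The averages thus do not show a fall in clone 5 apart from the split.

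DUSP4, a nuclear phosphatase for ERK and related kinases, had the widest range of the tested members, a ratio of 55.5 between its highest and lowest library. In clone 4 it stood at 21.2, 1.84 and 2.08 CPM with DMSO and at 1.15, 11.9 and 12.1 CPM with HyT36. Each treatment thus held both high and low libraries. In clone 5 it stood at 9.41, 12.4 and 11.4 CPM with DMSO and at 0.419, 0.434 and 0.382 CPM with HyT36, with no overlap.

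The high DUSP4 libraries were the high KRT19 libraries. DUSP4 ranged from 9.41 to 21.2 CPM in those 6 and from 0.382 to 2.08 CPM in the other 6. The clone 5 response was -4.74 ± 1.51 on the log2 scale and did not pass with the spread shared over all groups (edgeR adjusted p = 0.11). It passed without replicate 1 of clone 4 with DMSO (adjusted p = 0.025), and clone 5 fitted alone gave -4.73 (adjusted p = 7e-33). The clone 4 response was 0.01 ± 0.97 (adjusted p = 1).

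**Figure D2:**
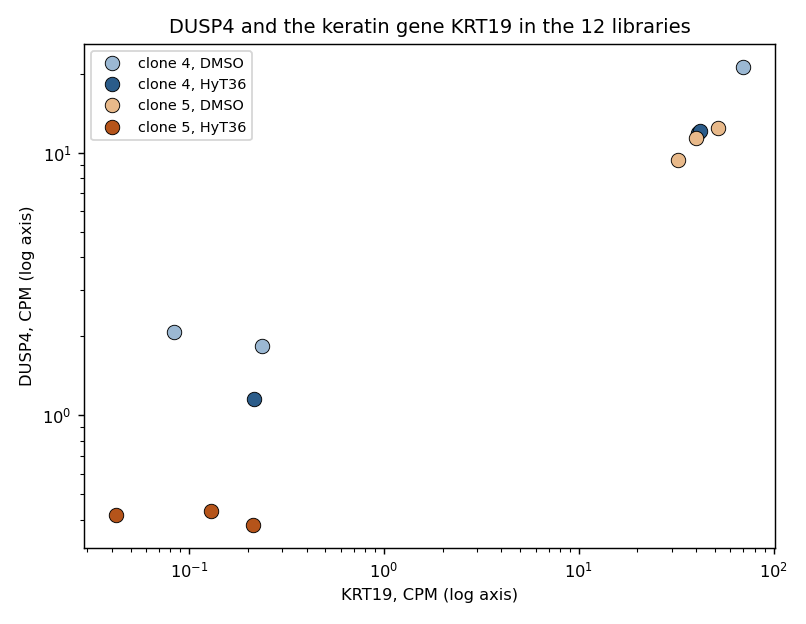
DUSP4 against the keratin gene KRT19, both in CPM on log axes, with 1 point per library and colours for clone and treatment. The 6 libraries with KRT19 at 32.2 CPM or more hold DUSP4 at 9.41 CPM or more, and the other 6 hold it at 2.08 CPM or less, within which the 3 clone 5 libraries are the lowest.

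Within the high side of the split, the 6 libraries had the same order in DUSP4 as in KRT19. The clone 4 library with DMSO stood at 21.2 CPM of DUSP4 and 69.9 CPM of KRT19. The clone 4 libraries with HyT36 stood at 11.9 and 12.1 CPM of DUSP4 and at 41.1 and 42.1 CPM of KRT19. The clone 5 libraries with DMSO, at 9.41, 12.4 and 11.4 CPM of DUSP4 and 32.2, 52.0 and 40.0 CPM of KRT19, overlapped those with the ligand. Other keratin genes had the same order in clone 4: KRT8 stood at 125 CPM with DMSO against 51.0 and 54.0 CPM with HyT36, and KRT7 at 14.9 against 6.96 and 7.31 CPM.

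On the low side, DUSP4 stood at 1.84 and 2.08 CPM in clone 4 with DMSO, at 1.15 CPM in clone 4 with HyT36 and at 0.382 to 0.434 CPM in clone 5 with HyT36, with KRT19 at 0.0419 to 0.235 CPM throughout. With the KRT19 indicator in the model, the DUSP4 response was -0.81 ± 0.13 in clone 4 (log2 scale, SE; edgeR adjusted p = 1.2e-05) and -1.33 ± 0.29 in clone 5 (SE; edgeR adjusted p = 0.0030). The clone 5 groups each lie on 1 side of the split, so the indicator's effect was estimated in clone 4 alone and carried over. The clone 5 value therefore cannot separate the ligand from the split. That indicator takes only the values high and low, so the lower KRT19, KRT8 and KRT7 of the ligand libraries within the high side are not accounted for. In the 6 libraries with KRT19 above 1 CPM the clone 4 value was -0.82, but its DMSO arm is the single library with the highest epithelial sum. In the 6 others it was -0.76 and did not pass (edgeR adjusted p = 0.47), with 1 library in its HyT36 arm. The part of the epithelial genes in these values was not tested beyond the indicator.

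DUSP6, the cytoplasmic ERK phosphatase, was low, at 5 to 35 reads per library. In clone 4 it stood at 1.48, 0.51 and 0.416 CPM with DMSO and at 0.216, 0.666 and 0.385 CPM with HyT36. Replicate 1 of clone 4 with DMSO was the highest, as it was for DUSP4 and DUSP5. In clone 5 it stood at 0.542, 0.405 and 0.292 CPM with DMSO and at 0.209, 0.434 and 0.212 CPM with HyT36. The treatments overlapped in both clones. The log2 fold changes were -0.91 ± 0.47 in clone 4 (edgeR adjusted p = 0.29) and -0.52 ± 0.55 in clone 5 (edgeR adjusted p = 0.67). The 95% interval in clone 4 ran from -1.83 to 0.0051, with replicate 1 of clone 4 with DMSO far above the other libraries. The summed reads, 58 with DMSO and 34 with HyT36, gave a ratio of 0.531 with an exact 95% counting interval of 0.337 to 0.825, which leaves out the spread between libraries. With the KRT19 indicator the clone 4 value was -1.36 and passed (edgeR adjusted p = 0.036), while the clone 5 value turned to 1.02 and did not (edgeR adjusted p = 0.46). That clone 5 value again rests on the indicator's effect in clone 4.

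SPRY2, SPRED1 and SPRED2, all inhibitors of the step from receptor to Raf, were better covered, and none passed in either response. SPRY2 responded by -0.13 in clone 4 (95% interval -0.31 to 0.053) and by 0.02 in clone 5 (-0.18 to 0.21). SPRED1, the gene whose germline loss causes Legius syndrome, responded by 0.02 (-0.11 to 0.16) and -0.05 (-0.19 to 0.087). These intervals leave room only for small changes. SPRED2 stood at 42.1, 41.0 and 39.3 CPM with DMSO and at 37.8, 35.8 and 38.8 CPM with HyT36 in clone 4, without overlap. Its clone 4 response was -0.12 ± 0.06 and did not pass (unadjusted p = 0.041 and adjusted p = 0.24 by edgeR's quasi-likelihood test).

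In clone 5 SPRED2 stood at 34.4, 37.1 and 35.2 CPM with DMSO and at 36.9, 39.0 and 34.5 CPM with HyT36, which overlapped. SPRY4 gave 15, 9 and 7 reads in clone 4 with DMSO and 5, 8 and 5 with HyT36, and 3, 2 and 3 reads in clone 5 with DMSO and 1, 1 and 1 with HyT36. The read ratio of HyT36 to DMSO was 0.526 in clone 4 (95% exact interval 0.277 to 0.97) and 0.418 in clone 5 (0.0715 to 1.74). Those intervals cover counting error only.

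ETV4 did not pass in either response. It stood at 2.62, 3.14 and 2.66 CPM with DMSO and at 2.52, 2.96 and 3.54 CPM with HyT36 in clone 4, and at 1.83, 1.10 and 1.31 CPM with DMSO and 1.05, 1.17 and 1.10 CPM with HyT36 in clone 5. The treatments overlapped in both clones, and the responses were 0.10 (95% interval -0.30 to 0.50) and -0.35 (-0.82 to 0.13). ETV5 gave 11, 12 and 13 reads in clone 4 with DMSO and 8, 9 and 4 with HyT36, and 1, 5 and 5 reads in clone 5 with DMSO and 8, 7 and 6 with HyT36. Each ligand library was below each DMSO library in clone 4 and above each in clone 5. Neither response passed (-0.91 ± 0.49 and 1.07 ± 0.59, edgeR adjusted p = 0.32 for both).

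The ligand responses of the clones were compared directly as the clone 5 response minus the clone 4 response. Of the 9 tested members, 0 were higher and 0 lower in edgeR, DESeq2 and limma-voom alike (DESeq2 gave DUSP4 no adjusted p), against 0.128% and 0.175% of all genes in edgeR. DUSP4, SPRY1, SPRED2 and ETV5 had an unadjusted p under 0.05 in edgeR, with differences of -4.75, -0.48, 0.17 and 1.98. The interval of the difference was widest for DUSP4, at -8.43 to -1.06, and narrow for SPRED1, at -0.27 to 0.11. The median difference of the members was 0.06, beside -0.0075 over all genes.

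**Figure D3:**
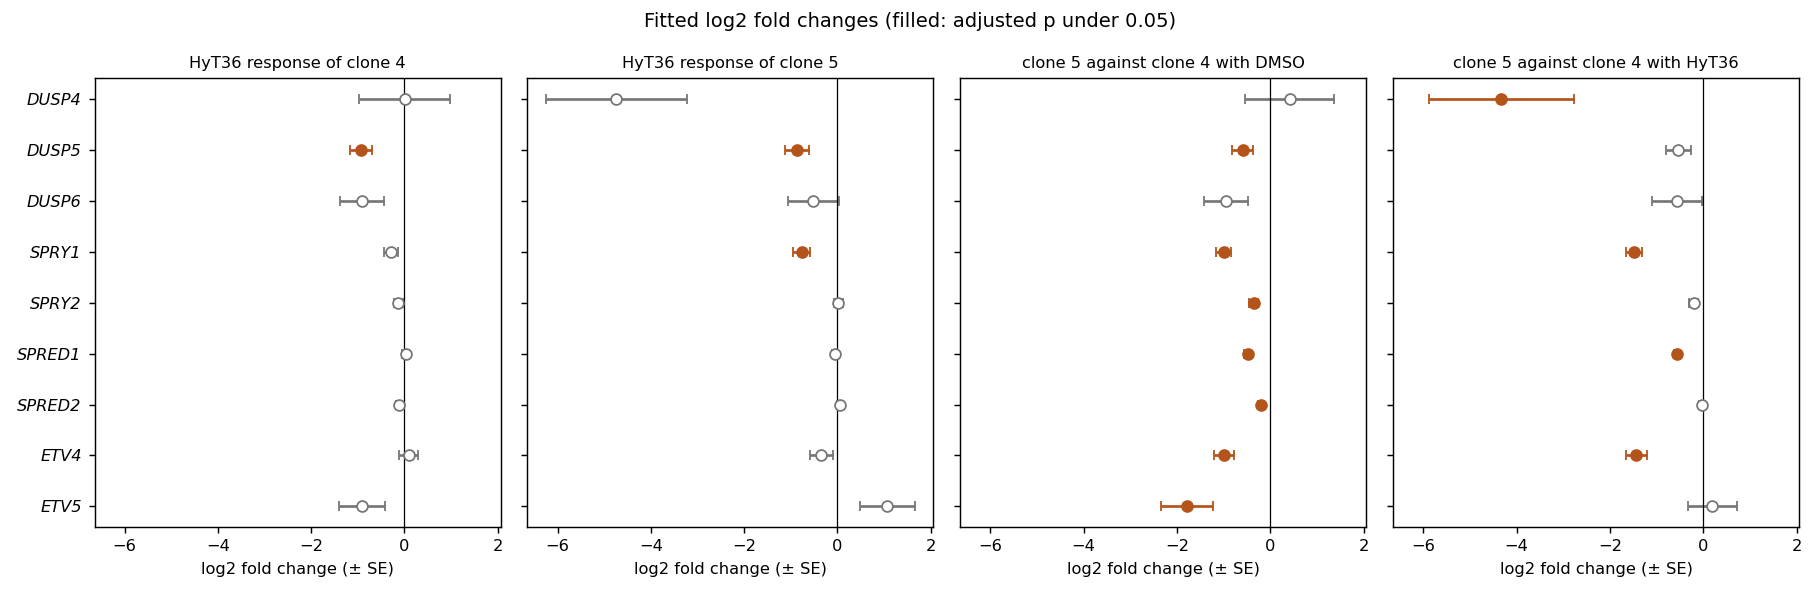
Fitted log2 fold changes (horizontal axes) ± SE of the 9 tested members (vertical axis) in 4 comparisons, with filled symbols for an adjusted p under 0.05. DUSP5 is filled in both ligand responses, SPRY1 in that of clone 5, and 7 and 4 members are filled, all below 0, in clone 5 against clone 4 with DMSO and with HyT36.

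More members were called between the clones than with the ligand, and each of them was lower in clone 5. With DMSO, 7 of 9 tested members were lower and 0 higher, where 28.2% of all genes were lower and 27.3% higher. With HyT36, 4 of 9 were lower and 0 higher, against 28.9% and 27.0%. The median log2 difference was -0.59 with DMSO and -0.56 with HyT36, beside 0.0017 and -0.0047 over all genes. These comparisons share their libraries with the ligand responses above and are not independent of them. The 2 clones are 1 clone each, so the differences describe these lines.

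SPRY1, SPRED1 and ETV4 were lower in clone 5 under both treatments, with no overlap of libraries. SPRY1 ranged from 5.14 to 6.78 CPM in clone 4 and from 2.70 to 3.25 CPM in clone 5 with DMSO, a log2 difference of -0.999 ± 0.16 (SE; edgeR adjusted p = 1.1e-06). With HyT36 the difference was -1.48 ± 0.17 (SE; edgeR adjusted p = 1.4e-09). SPRED1, on chromosome 15 (38252836 to 38357249, GRCh38.p14), stood at 27.7, 26.4 and 25.8 CPM in clone 4 and at 19.3, 19.1 and 18.6 CPM in clone 5 with DMSO. With HyT36 it stood at 27.8, 28.1 and 25.4 CPM in clone 4 and at 17.1, 18.7 and 19.1 CPM in clone 5. The groups were tight and well apart, at -0.49 ± 0.07 (edgeR adjusted p = 1.1e-07) and -0.57 ± 0.07 (edgeR adjusted p = 4.4e-09).

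ETV4, on chromosome 17 (43527846 to 43546340, GRCh38.p14), was 1.99-fold lower in clone 5 with DMSO (log2 difference -0.99 ± 0.22, edgeR adjusted p = 0.00018). With HyT36 it was 2.71-fold lower (-1.44 ± 0.23, edgeR adjusted p = 8.8e-07). ETV5, its close relative, was lower in clone 5 with DMSO (-1.79 ± 0.55, edgeR adjusted p = 0.0054), on 36 reads in clone 4 against 11 in clone 5. With HyT36 it gave 21 reads in each clone, and the difference was 0.20 ± 0.53 (edgeR adjusted p = 0.77). SPRY4, tested only without the filter on low counts, was lower in clone 5 both with DMSO (-2.01, edgeR adjusted p = 0.017) and with HyT36 (-2.26, edgeR adjusted p = 0.038). Its read ratio of clone 5 to clone 4 was 0.240 with DMSO (95% exact interval 0.0954 to 0.534) and 0.191 with HyT36 (0.036 to 0.654).

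SPRY2 and SPRED2 were lower in clone 5 with DMSO, by small amounts. SPRY2 stood at 10.2, 11.1 and 10.9 CPM in clone 4 and at 8.54, 8.65 and 8.06 CPM in clone 5 (log2 difference -0.35 ± 0.09, edgeR adjusted p = 0.0016). SPRED2 differed by -0.20 ± 0.06 (SE; edgeR adjusted p = 0.0040). In the libraries with KRT19 above 1 CPM alone, where clone 4 has 1 DMSO library, the DMSO differences of SPRY2 (-0.27, adjusted p = 0.096) and ETV5 (-1.70, adjusted p = 0.084) did not pass. With HyT36 neither SPRY2 nor SPRED2 passed: SPRY2 differed by -0.21 (edgeR adjusted p = 0.059; -0.28 and 0.038 with the KRT19 indicator), with each clone 5 library below each clone 4 library, and SPRED2 by -0.03 (edgeR adjusted p = 0.73).

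Among the phosphatases, DUSP5 was lower in clone 5 with DMSO (-0.59 ± 0.23, edgeR adjusted p = 0.028) although the libraries overlapped. This call was lost without replicate 1 of clone 4 with DMSO (adjusted p = 0.14), without replicate 1 (0.060) or replicate 3 (0.15) of clone 5 with DMSO, and in DESeq2 (0.051). With HyT36 the difference was -0.53 ± 0.26 and did not pass (edgeR adjusted p = 0.080). It passed without replicate 3 of clone 5 with HyT36 (-0.71, adjusted p = 0.042). DUSP6 differed by -0.96 ± 0.47 with DMSO (edgeR adjusted p = 0.084) and by -0.56 ± 0.54 with HyT36 (edgeR adjusted p = 0.39). The DMSO value passed without replicate 2 (-1.20, adjusted p = 0.045) or replicate 3 (-1.26, adjusted p = 0.031) of clone 4 with DMSO. In the other 10 fits that left out a library it did not pass, and it shrank to as little as -0.18. With the KRT19 indicator it passed (-1.78, adjusted p = 0.00098). The indicator's effect came from clone 4, where replicate 1, at 1.48 CPM of DUSP6, is the only high KRT19 library with DMSO.

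DUSP4 was lower in clone 5 with HyT36 (-4.33 ± 1.55, edgeR adjusted p = 0.042), where clone 4 holds 2 libraries of high KRT19 and clone 5 none. It missed the threshold in 8 of the 12 fits that left out a library: without replicate 2 or 3 of clone 4 with HyT36, or any 1 library of clone 5, at adjusted p-values of 0.058 to 0.11. With DMSO it differed by 0.42 ± 0.96 (edgeR adjusted p = 0.74), and by 2.50 without replicate 1 of clone 4 with DMSO (adjusted p = 0.042). With the KRT19 indicator the difference was -0.93 with DMSO (edgeR adjusted p = 2.2e-08) and -1.44 with HyT36 (edgeR adjusted p = 3.3e-05). The DMSO value compares the single high library of clone 4, with KRT19 at 69.9 CPM, with 3 of clone 5, with KRT19 at 32.2 to 52.0 CPM, so KRT19 was lower there as well. The direction with DMSO thus turned with the indicator.

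Over the 12 libraries, the members that separated the clones followed each other. Pearson's r of log2(CPM + 0.1) was 0.923 between SPRED1 and ETV4, 0.913 between SPRY1 and SPRED1, and 0.886 between SPRY1 and ETV4. The points share clone, treatment and depth, and the clones do not overlap in these 3 genes. By the same measure the 3 genes most like DUSP5 among 11535 candidates were UPF2 (0.947), RBM25 (0.944) and ZNFX1 (0.942). Those most like DUSP6 were the iron exporter gene SLC40A1 (0.854), the syndecan gene SDC4 (0.847) and the antisense transcript FBXL19-AS1 (0.840). These too are descriptions over the same 12 libraries.

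The rest of the pathway was described by lists, whose counts stand against the same shares of all genes, 3.36% lower and 2.21% higher in the clone 4 response and 4.83% lower and 3.35% higher in that of clone 5. Of 7 other MAPK phosphatase genes, 2 fell and 0 rose with HyT36 in each clone, and they were DUSP7 and DUSP2 both times. DUSP7, a cytoplasmic ERK phosphatase, stood at 43.3, 45.5 and 45.2 CPM with DMSO and at 33.1, 35.8 and 33.6 CPM with HyT36 in clone 4. In clone 5 it stood at 27.5, 30.4 and 26.5 CPM with DMSO and at 20.2, 19.5 and 24.5 CPM with HyT36. The treatments did not overlap in either clone, in clone 4 across both sides of the KRT19 split. In log2 terms DUSP7 fell by 0.39 ± 0.07 in clone 4 (edgeR adjusted p = 0.00014) and by 0.39 ± 0.07 in clone 5 (edgeR adjusted p = 0.00028). DUSP2, a nuclear phosphatase, fell by 0.54 ± 0.11 in clone 4 (edgeR adjusted p = 0.0012) and by 0.62 ± 0.14 in clone 5 (edgeR adjusted p = 0.0023).

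Of 11 other ERK-induced transcripts and feedback inhibitors, 2 fell in clone 4 and 3 in clone 5, and 0 rose in either. EPHA2, a receptor tyrosine kinase gene, went from a mean of 55.2 to 35.5 CPM in clone 4 (log2 fold change -0.64 ± 0.08, edgeR adjusted p = 4.3e-05) and from 32.2 to 23.4 CPM in clone 5 (-0.46 ± 0.09, edgeR adjusted p = 0.0023). FOSL1, the AP-1 subunit FRA-1, went from 33.1 to 26.7 CPM in clone 4 (-0.31 ± 0.07, edgeR adjusted p = 0.0041) and from 27.4 to 19.3 CPM in clone 5 (-0.50 ± 0.07, edgeR adjusted p = 8.9e-06). Their treatments did not overlap in either clone. IER3, an immediate early gene, fell in clone 5 (-1.14 ± 0.28, edgeR adjusted p = 0.0067). CCND1, which passed in neither response, followed the KRT19 split, at 3.97 to 9.52 CPM in the high libraries and 0.651 to 1.3 CPM in the low ones. The list medians were -0.18 in clone 4 and -0.36 in clone 5, beside 0.0027 and -0.0045 over all genes. In clone 5 the ligand and the split cannot be told apart in that median.

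**Figure D4:**
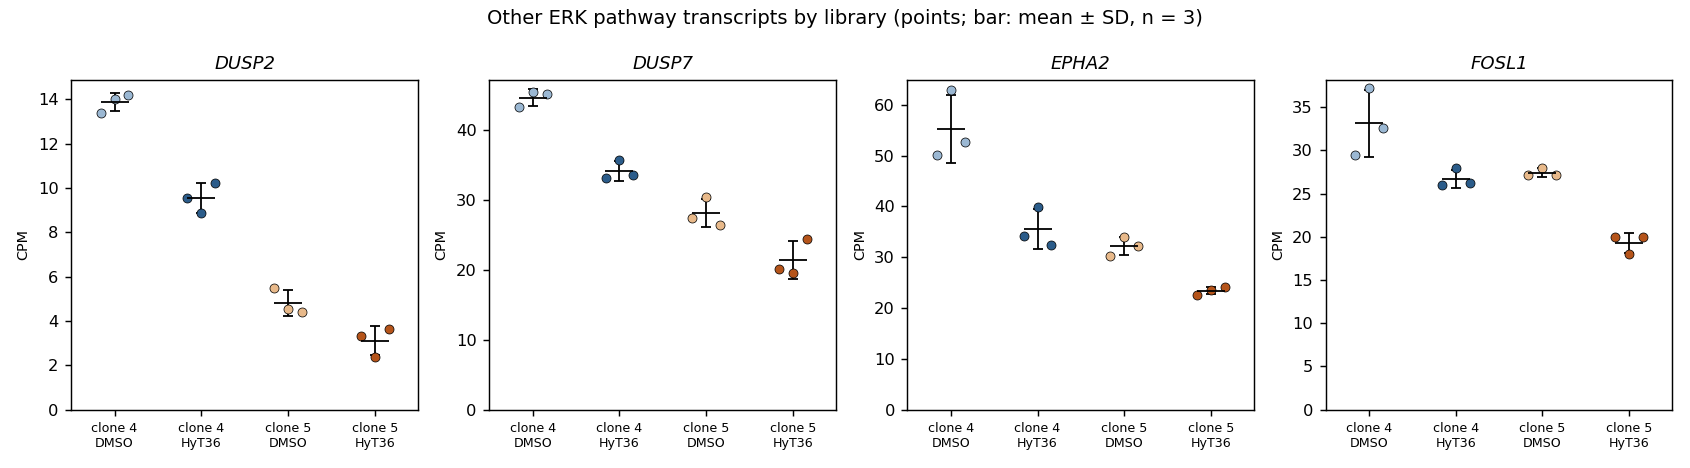
Levels in CPM (vertical axes, from 0) of the phosphatase genes DUSP2 and DUSP7 and the ERK-induced genes EPHA2 and FOSL1 in the 12 libraries by clone and treatment (points; bars are the mean ± SD of 3). All 4 are lower with HyT36 than with DMSO in each clone without overlap.

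Upstream, few genes passed and the directions were mixed. Of 10 receptor tyrosine kinase genes, 0 passed in clone 4. In clone 5, PDGFRA rose (0.26, edgeR adjusted p = 0.00037), while FGFR3 (-0.21, adjusted p = 0.021) and ERBB2 (-0.52, adjusted p = 0.021) fell. Within clone 4, ERBB2 followed the KRT19 split, at 8.28 to 11 CPM in the high libraries and 6.82 to 7.89 CPM in the low ones. As for every clone 5 response, the ligand and the split cannot be told apart in its fall. Of 23 genes from adaptors to ERK and its kinase targets, 1 rose and 1 fell in clone 4, and 3 rose and 1 fell in clone 5. The adaptor gene FRS2 fell in both clones (-0.25 and -0.27), and the Ras exchange factor gene SOS2 rose in both (0.26 and 0.23). NF1 (0.17), a Ras inhibitor that Spred proteins recruit, and the phosphatase gene PTPN11 (0.13) rose in clone 5. Of 8 ETS factors and repressors, 1 fell in clone 4, the repressor gene ERF (-0.21, edgeR adjusted p = 0.025), and 0 passed in clone 5. SPRY3, SPRED3 and ETV1, the family relatives of the members, did not pass in either response.

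Between the clones, genes of the pathway differed in both directions, where 28.2% of all genes were lower and 27.3% higher in clone 5 with DMSO, and 28.9% and 27.0% with HyT36. Counts near these shares are no result about a list, and no list was tested as a set. ETV1, the third member of the ETV4 and ETV5 subfamily, was lower in clone 5 with DMSO, at a mean of 0.329 against 7.92 CPM (log2 difference -4.56, edgeR adjusted p = 3.9e-22), and likewise with HyT36 (-4.56, edgeR adjusted p = 8e-22). Of the 7 other phosphatase genes, 3 were lower and 2 higher in clone 5 under each treatment. DUSP2 differed by -1.53 and DUSP7 by -0.67 with DMSO, while DUSP9 was higher by 1.26. Of the 11 ERK-induced genes, 7 were lower and 1 higher in clone 5 under each treatment. The higher one was SPHK1 (1.12 with DMSO), and EPHA4 (-0.87), PHLDA1 (-1.30) and EPHA2 (-0.78) were among the lower ones with DMSO. Of the 10 receptor genes, 5 were lower and 1 higher under each treatment, and FGFR2 (-0.59 with DMSO) had the smallest p. Of the 23 cascade genes, 12 were lower and 4 higher with DMSO and 9 and 4 with HyT36, RPS6KA3 (0.91 with DMSO) and ARAF (0.76) being higher. Of the 8 ETS genes, 2 were lower and 4 higher under each treatment, with ELK1 higher by 0.91 with DMSO.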

How the data were processed

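The authors deposited 1 table of raw read counts for 12 bulk libraries, not normalized, per the file headers, with columns matched to samples by name. The submitters' processing notes list GRCh38 and Cell Ranger 7 without tying them to these libraries. No label or header names the bulk aligner or its strand handling, so antisense or overlapping reads cannot be told apart. Entries that name no gene and guide features were left out, and genes made up 82.4 to 83.9% of counts. edgeR 4.0.16 (R 4.3.3) was used with filterByExpr, TMM scaling and robust quasi-likelihood F-tests, two-sided, with 1 mean per group over 12 libraries. Standard errors are the log2 fold change over the square root of F, and 95% intervals are 1.96 times that. Alternatives were DESeq2 1.42.0, limma-voom 3.58.1, RLE scaling, no filter, a replicate block, single clones, each library left out and terms for KRT19. On data simulated for the clone 4 response over 14731 genes, 46% of 1.25-fold, 82% of 1.5-fold and 94% of 2-fold changes were recovered. Of the calls, 6.47% were false. The changed genes were picked at random and no KRT19 split was simulated. These shares therefore do not give the recovery of single members such as DUSP4, DUSP6 or ETV5.

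The members and lists were chosen with earlier results of these data known. All 10 members are named in each comparison, and of each list up to 4 called genes of smallest p. Genes most like DUSP5 and DUSP6 were sought among tested genes whose average log2 CPM reached 1. Replicates of a group differed by more than sampling noise.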

Additional observations from a re-analysis of the deposited data

Results flagged for a closer look

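The order of the ETV5 libraries was opposite in the clones, which brought this gene here. Every clone 4 library with HyT36 was below every clone 4 library with DMSO. Every clone 5 library with HyT36 was above every clone 5 library with DMSO. Neither response passed (edgeR adjusted p = 0.32 for both). The difference of the responses, clone 5 minus clone 4, was 1.983 ± 0.77 on the log2 scale (SE), and it did not pass (unadjusted p = 0.014 and adjusted p = 0.44 by edgeR's quasi-likelihood test). It rests on 36 and 21 reads over 3 libraries in clone 4 and on 11 and 21 in clone 5.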

How the results depend on the processing

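The number of members called changed under several choices. In clone 4 it went from 1 to 0 in DESeq2, which gave DUSP5 no adjusted p there, to 3 with the KRT19 indicator, to 2 in the libraries with KRT19 above 1 CPM and to 0 in those with at most 1 CPM. In clone 5 it went from 2 to 1 (DUSP4, a different gene) with the indicator, whose effect was estimated in clone 4 alone. It went to 3 with clone 5 fitted alone, which added DUSP4. In the averaged response it went from 2 to 3 with the indicator, which added DUSP4 (-1.07, adjusted p = 3.3e-07), and to 1 in DESeq2, which again gave DUSP5 no adjusted p, as in 16 of its member values in all. Between the clones with DMSO it went from 7 to 9 with the indicator, to 8 without the filter, which added SPRY4, and to 6 in DESeq2. In the high KRT19 libraries clone 4 has 1 library with DMSO. There the differences were -0.93 for DUSP4 and -1.84 for DUSP6, and the genes called were not the same ones. With HyT36 it went from 4 to 5 with the indicator and to 3 in DESeq2, limma-voom and the block. Leaving out 1 library gave 0 to 1 calls in clone 4, 1 to 3 in clone 5, 2 to 2 in the average, 0 to 0 in the difference, and 6 to 8 and 3 to 4 between the clones with DMSO and with HyT36.

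Signs turned as follows. For DUSP4, the clone 4 response was -0.81 with the indicator, -0.82 in the high and -0.76 in the low KRT19 libraries, and the DMSO clone difference -0.93 with the indicator and -0.93 in the high libraries. With the indicator, DUSP6 turned to 1.02 in the clone 5 response and 0.60 between clones with HyT36 (0.39 in the low libraries), and SPRY2 to -0.10 in clone 5 and -0.0060 in the difference. SPRED1 turned to -0.0457 in clone 4 in the high libraries, and ETV4 to -0.20 in the low ones. Leaving out 1 library gave ranges across 0 for DUSP4 in clone 4 (-0.47 to 2.09) and between clones with DMSO (-0.0614 to 2.50), ETV4 in clone 4 (-0.0324 to 0.21), SPRY2 in clone 5 (-0.022 to 0.064), SPRED1 (-0.0266 to 0.0135) and ETV5 (-0.11 to 0.21) in the average, DUSP5 (-0.12 to 0.30) and DUSP6 (-0.38 to 0.88) in the difference, and SPRED2 (-0.0712 to 0.0253) and ETV5 (-0.0533 to 0.41) between clones with HyT36. Where no construction shows it, the cause was not tested.

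Replicate numbers did not pair the libraries: of 18 same-numbered pairs 2 correlated over 0.1 (range -0.534 to 0.166). A replicate block gave 1, 2, 2, 0, 7 and 3 calls in the order of the comparisons above, losing DUSP4 between clones with HyT36 (adjusted p = 0.077). That call was also lost in limma-voom (0.29) and without the filter (0.076). The planned split at an epithelial sum of 20 CPM could not be run, since all 12 libraries were above it, and the KRT19 terms were chosen after seeing the data in its place. SPRY4 and ETV5 rest on 1 to 15 and 1 to 13 reads per library.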
